A study of Prunus dulcis and Prunus persica and Prunus persica x Prunus dulcis with 15 samples.

Results

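The 6 families of long interspersed nuclear elements (LINEs) described here are LINE_5760, LINE_12224, LINE_10647, LINE_10782, LINE_1483 and LINE_12532. They were chosen by name, as families whose RNA had been seen mainly in almond in earlier results of the same libraries, and are 6 of the 20 LINE families and of the 60 transposable element (TE) families in a table of 22334 features. The almond and peach levels therefore chose them, and the almond against peach values below are a description with no test. The plants were almond (Prunus dulcis) cv Texas, peach (Prunus persica) cv Early Gold and 1 F1 hybrid genotype of both species, MB 1.37. Field-grown trees under normal irrigation were sampled in late September, the tissue was mature leaf and no treatment is stated. Tree ages were not given in the sources used here. RNA-seq gave 3 libraries per genotype, 9 in all, and bisulphite sequencing gave 2 libraries per genotype that the authors merged into 1 value. The hybrid is 1 genotype, so the values describe this genotype and not peach x almond hybrids in general.

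LINEs are retrotransposons without long terminal repeats. They copy themselves through an RNA that encodes an endonuclease and a reverse transcriptase, and the new DNA is made at the nick in the target site, a process that often stops early and leaves copies lacking their 5′ part. Plants keep TEs silent largely through DNA methylation of cytosines, which is read separately for CG, CHG and CHH sites, H being A, C or T. In Arabidopsis, MET1 maintains CG methylation, CMT3 maintains CHG methylation, and DRM2 and CMT2 make CHH methylation. Sequences methylated in CG only are also common within Arabidopsis genes that are transcribed.

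Each family was counted on 1 representative copy, which the authors took from the genome as the copy most like an assembled transcript. All 6 representative copies are almond copies, given here by the coordinates of the authors' almond annotation, whose build is not given in the sources used here. The LINE_5760 copy is chr1:1085196-1091293 on the plus strand and is 6098 bp long. The LINE_12224 copy is chr7:14372744-14373971 on the minus strand and has 1228 bp, and the LINE_10647 copy is chr7:13239712-13241433 on the plus strand and has 1722 bp. The representative of LINE_10782 is chr6:13831505-13832388 on the minus strand, with 884 bp. That of LINE_1483 is chr5:1447053-1447770 on the plus strand, with 718 bp, and that of LINE_12532 is chr4:5690304-5692706 on the plus strand, with 2403 bp. The lengths differ by far, and only the LINE_5760 representative was longer than 5000 bp. Which gene, exon or intron these copies lie in was not analysed here.

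The libraries held between 7485763 and 17725455 read pairs, with the lowest and the highest total both in almond. Every count in the table is even, so a pair counts as 2, and pairs are given below. Levels are CPM, the counts of a family relative to the library total, scaled with TMM factors, a correction for library composition that lay between 0.943 and 1.05. Gene models in the table are those of peach, so the number of almond pairs that found no counterpart in it was not tested. The LINE representatives described here are all almond copies, so the number of peach pairs that found no counterpart among them was not tested either. The peach levels below, and all values set against peach, carry this limit. A library of leaf tissue is a mixture, and fewer cells of a type and less RNA per cell cannot be told apart.

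LINE_5760 held most of the RNA of the 6 families. In almond it had 462, 1145 and 836 read pairs, or 58.8, 63.2 and 99.0 CPM. In the hybrid it had 375, 429 and 278 pairs, or 23.6, 28.1 and 23.2 CPM, and in peach 43, 71 and 13 pairs, or 2.79, 4.71 and 0.865 CPM. Every almond library was above every hybrid library, and every hybrid library above every peach library. The means were 73.7 ± 22.0 CPM in almond, 25.0 ± 2.73 in the hybrid and 2.79 ± 1.92 in peach (SD, n = 3 each). LINE_5760 made up between 73.3% and 86.5% of the counts of the 6 families in almond and between 68.4% and 72.4% in the hybrid.

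Of the 5 families that passed the low-count filter, LINE_12224 was the one with the smallest fold difference in mean level between almond and the hybrid, a ratio of 0.865. It had 63, 132 and 76 pairs in almond, or 8.02, 7.28 and 9.0 CPM. The hybrid libraries had 122, 102 and 80 pairs, or 7.67, 6.68 and 6.68 CPM. Peach had 1 pair in each of 2 libraries and 0 in the other. The almond and hybrid ranges overlapped, and peach was apart from both. This family also varied least among replicates, with a coefficient of variation of 10.6% in almond and 8.15% in the hybrid, where LINE_5760 had 29.9% and 10.9%.

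LINE_10782 had 62, 74 and 30 pairs in almond (7.89, 4.08 and 3.55 CPM), 28, 33 and 15 in the hybrid (1.76, 2.16 and 1.25 CPM) and 0, 1 and 8 in peach. LINE_10647 had 32, 21 and 16 pairs in almond (4.07, 1.16 and 1.89 CPM), 16, 11 and 5 in the hybrid (1.01, 0.721 and 0.417 CPM) and 1, 0 and 0 in peach. In both families the hybrid libraries lay below every almond library and above every peach library. Of the 9 peach pairs of LINE_10782, 8 came from the library labelled replicate 4.

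The remaining families rested on few reads. LINE_1483 had 11, 16 and 0 pairs in almond, 2, 15 and 2 in the hybrid and 0 in all 3 peach libraries. LINE_12532 had 0, 0 and 9 pairs in almond, 5, 3 and 4 in the hybrid and 0 in all 3 peach libraries. LINE_1483 was thus not seen in the third almond library, where LINE_12532 was seen, and its hybrid level of 0.425 ± 0.483 CPM (SD, n = 3) was set by replicate 2. LINE_12532 goes against the name of the group, since its RNA was found in 1 of 3 almond and in 3 of 3 hybrid libraries, and its mean level was 0.355 ± 0.615 CPM in almond and 0.282 ± 0.0743 CPM in the hybrid (SD, n = 3 each). Of the 6 families, 5 passed the low-count filter and LINE_12532 did not.

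**Figure D1:**
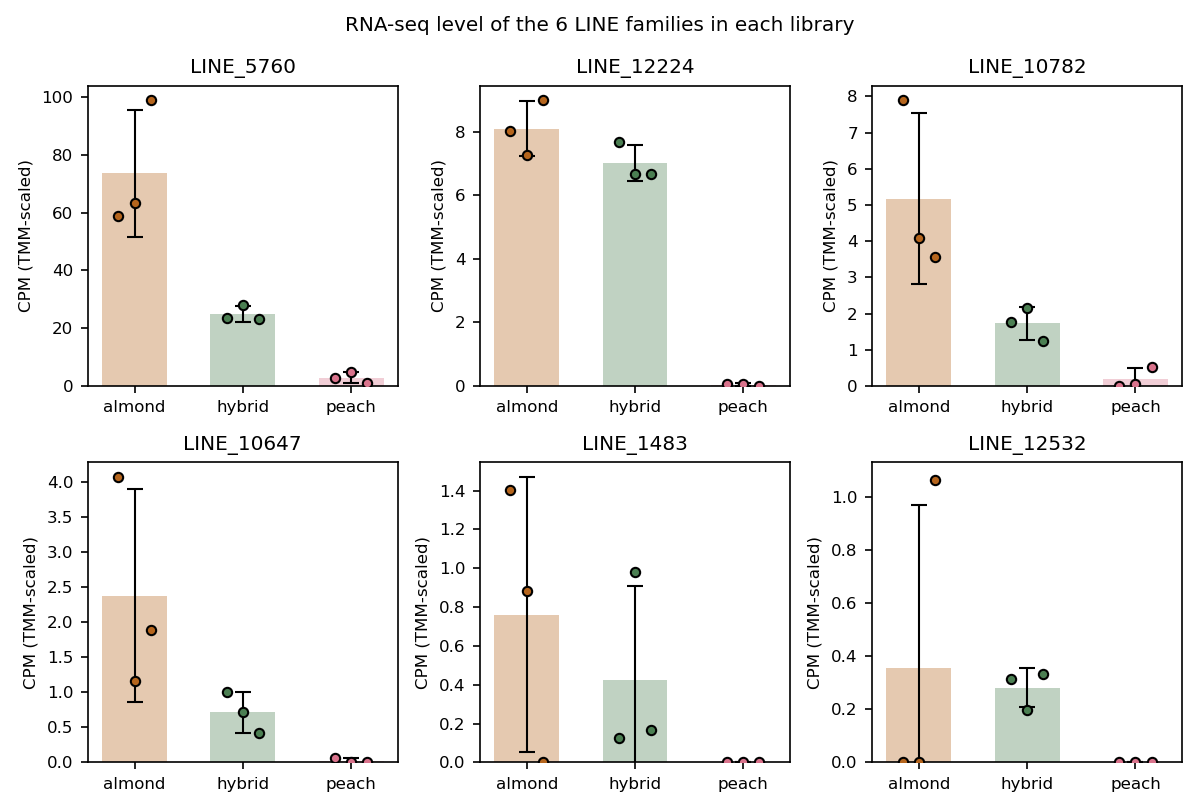
Level of each of the 6 LINE families in almond, the hybrid and peach, with CPM on the y axis and an own scale from 0 for each family. Points are libraries, bars are means and black lines are ± 1 SD (n = 3), which are clipped at 0. LINE_5760, LINE_10782 and LINE_10647 show hybrid libraries below all almond libraries, LINE_12224 shows overlapping ranges, and LINE_12532 shows 1 almond library with reads.

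As a description of the choice, almond held 25.4 times the LINE_5760 pairs of peach at equal totals (95% counting interval 21.3 to 30.6). The same ratio was 24.4 for LINE_10782 (12.5 to 54.2), 179 for LINE_12224 (49.1 to 1486) and 91.2 for LINE_10647 (15.8 to 3653). For LINE_1483 and LINE_12532, with 0 peach pairs, the ratios were 11.9 and 3.96, computed against a floor of 3 pairs over the 3 peach libraries. They do not allow for counting error in the almond pairs, which for LINE_12532 all came from a single library. The intervals above cover counting error only. In edgeR, 5 of the 5 families tested were called higher in almond, where 10.3% of 19085 tested features were, and nothing is read from that count, since the same contrast chose the families.

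The question for the hybrid was how much RNA of these almond families remained where the almond genome is 1 of 2 parental genomes. LINE_5760 fell in the hybrid to 0.339 of its almond level, a log2 fold change of -1.56 (SE 0.40, 95% interval -2.44 to -0.68, edgeR adjusted p = 0.0282), with hybrid libraries lower in 3 of 3. It was the only family of the 5 tested that was called lower, where 1.99% of all tested features were, and none was called higher, where 5.62% were. Features were called at an adjusted p under 0.05 (Benjamini-Hochberg, over all features) if the level also differed by 1 or more on the log2 scale. The call was lost without almond replicate 2 (adjusted p = 0.0555) or 3 (0.104), without hybrid replicate 1 (0.0898), 2 (0.0764) or 3 (0.104), and against a minimum fold of 2 (0.413), all by edgeR. The almond libraries of this contrast are also those that chose the family.

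LINE_10647 and LINE_10782 had fold changes of about the same size as LINE_5760 but did not pass the test. LINE_10647 stood at -1.71 on the log2 scale (SE 0.88, edgeR adjusted p = 0.259) and LINE_10782 at -1.58 (SE 0.81, edgeR adjusted p = 0.260). The pooled pairs gave hybrid over almond ratios of 0.353 for LINE_5760 (counting interval 0.329 to 0.380), 0.370 for LINE_10647 (0.235 to 0.571) and 0.365 for LINE_10782 (0.275 to 0.482). Hybrid libraries lay below all almond libraries without overlap in these 3 of the 5 tested families, where 14.6% of all tested features did so. High almond levels are part of what chose the families, so this count is a description. LINE_5725 and LINE_3645, LINE families that were not chosen, also had hybrid libraries below all almond libraries. LINE_1483 stood at -0.83 (SE 1.43, edgeR adjusted p = 0.788), with an interval from -4.04 to 2.38 that leaves its direction undetermined.

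LINE_12224 stood at -0.21 in the hybrid against almond (SE 0.34, edgeR adjusted p = 0.775). Its 95% interval of -0.95 to 0.54 held 0 and did not hold -1, the value at which the hybrid has 1/2 of the almond level. The intervals of the other 4 tested families held -1. The lower end of the LINE_12224 interval passed -1 when almond replicate 1 or 2 or any of the hybrid libraries was left out, with lower ends from -1.16 to -1.08. Within single libraries, LINE_12224 had 13.6, 11.5 and 9.09 counts per 100 counts of LINE_5760 in almond and 32.5, 23.8 and 28.8 in the hybrid. The groups did not overlap, and the exact two-sided permutation test gave p = 0.1, the smallest that 3 against 3 libraries allow. This ratio was chosen after its values were seen.

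**Figure D2:**
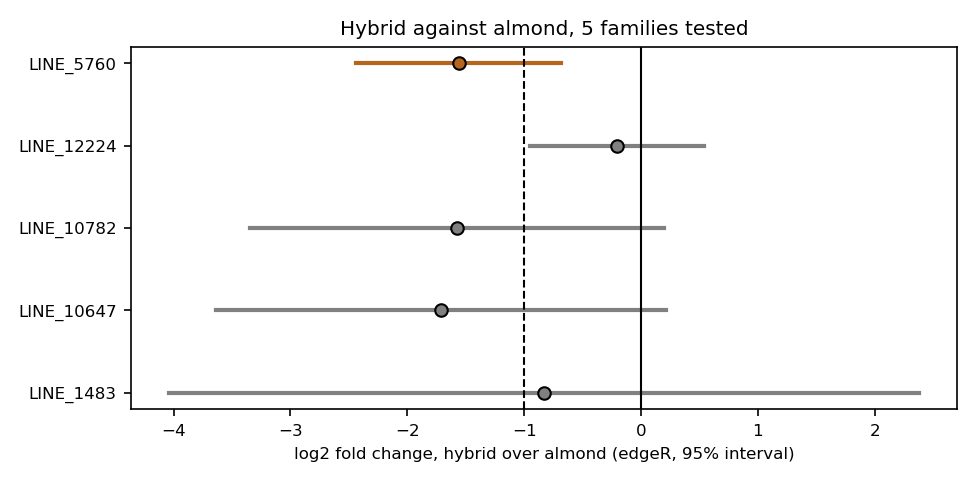
Log2 fold change of the hybrid over almond for the 5 families that passed the low-count filter (points) with the 95% intervals of the edgeR fit (lines). The solid line marks 0, the dashed line marks -1, and the coloured family, LINE_5760, is the one called; LINE_12224 is the one whose interval ends above the dashed line.

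Against peach, 3 of the 5 tested families were called higher in the hybrid, where 5.2% of all tested features were. These were LINE_5760 with a log2 fold change of 3.16 (SE 0.44, edgeR adjusted p = 0.000846), LINE_12224 (adjusted p = 8.19e-06) and LINE_10647 (adjusted p = 0.0208), in each case with hybrid libraries above peach in 3 of 3. LINE_10782 at 3.09 (SE 0.92, edgeR adjusted p = 0.0524) and LINE_1483 (adjusted p = 0.0950) were not called. The pooled hybrid over peach ratio was 8.98 for LINE_5760 (counting interval 7.47 to 10.9), 8.90 for LINE_10782 (4.45 to 20.2), 160 for LINE_12224 (44.0 to 1330) and 33.7 for LINE_10647 (5.64 to 1374). All 6 families had hybrid libraries above all peach libraries, where 16.6% of the tested features did so. Low peach levels are part of what chose the families, so these calls are not independent of the choice. LINE_10782 was called higher in the hybrid with read pairs in place of counts (edgeR adjusted p = 0.0329), with no low-count filter (0.0366) and without peach replicate 4 (0.00379). LINE_10647 was not called without peach replicate 3 (0.0657), peach replicate 4 (0.0547), hybrid replicate 1 (0.0591) or hybrid replicate 2 (0.0507), or against a minimum fold of 2 (0.0666), all by edgeR. Of the 11 other LINE families tested, 1 was called higher in the hybrid than in peach, LINE_5725 (edgeR adjusted p = 2.48e-05), and 2 were called lower.

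The hybrid was also set against the mean of both parents. On the log2 scale a parent near 0 pulls this mean down, and the low peach levels chose the families, so a position above it is not independent of the choice. LINE_12224 was called higher in the hybrid than the log2 mean, the only one of the 5 tested families that was (edgeR adjusted p = 9.77e-05), where 3.97% of all tested features were called in either direction and 3.5% higher. Of the 11 other LINE families tested, 3 were also called higher, LINE_5725 (edgeR adjusted p = 0.000828), LINE_11441 (0.000183) and LINE_11334 (0.000615), so that this call was not particular to LINE_12224. The fitted fold of LINE_12224 depends on how 2 peach pairs are treated and is not given. On the linear scale the LINE_12224 level in the hybrid was 1.72 times the mean of the parents, 7.01 against 4.07 CPM, while that of LINE_5725 was 0.977 times the mean. LINE_5760 changed sides with the scale. It stood at 0.80 above the log2 mean (SE 0.34, edgeR adjusted p = 0.270) and at 0.653 of the linear mean. LINE_10782 likewise stood at 0.76 above the log2 mean (SE 0.70, edgeR adjusted p = 0.695) and at 0.642 of the linear mean, and LINE_10647 at 0.596 of the linear mean.

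Exact two-sided permutation tests of the CPM values, 12 in all for the hybrid against each parent, could not go below p = 0.1. For the hybrid against almond, p was 0.1 for LINE_5760, LINE_10647 and LINE_10782, 0.2 for LINE_12224, 0.7 for LINE_1483 and 1 for LINE_12532. For the hybrid against peach it was 0.1 for every family, and the lowest adjusted value was 0.133.

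Per kilobase of representative copy, the order of the families differed between almond and the hybrid. In almond the CPM per kilobase was 12.1 for LINE_5760, 6.60 for LINE_12224, 5.86 for LINE_10782, 1.38 for LINE_10647, 1.06 for LINE_1483 and 0.148 for LINE_12532. The libraries of LINE_12224 (5.93 to 7.33) lay within those of LINE_10782 (4.02 to 8.93), and those of LINE_10647 and LINE_1483 also overlapped. In the hybrid LINE_12224 came first with 5.71 CPM per kilobase and LINE_5760 second with 4.09, with ranges of 5.44 to 6.25 and 3.81 to 4.61 that did not overlap. LINE_10782 followed with 1.95, and then LINE_1483 with 0.592 and LINE_10647 with 0.415, which overlapped. Reads of other copies may have been counted on a representative, so the level per kilobase is that of a family on the length of 1 copy.

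The 6 families together reached 90.4 ± 20.9 CPM in almond, 35.1 ± 3.45 in the hybrid and 3.05 ± 1.72 in peach (SD, n = 3 each). They were between 48.9% and 53.9% of all LINE counts in almond, between 23.9% and 32.3% in the hybrid and between 1.58% and 3.92% in peach. Among the 14 other LINE families, 11 were tested, and 2 were called higher and 0 lower in the hybrid than in almond. These 2, LINE_11441 and LINE_11334, had 0 read pairs in almond. The median log2 fold change of the 11 was 0.32, against -1.56 for the 5 tested families described here and -0.00 for all features tested. High almond levels are part of what chose the 5 families, so their lower median is not independent of the choice and is a description. LINE_5725, which also has an almond representative copy but was not among the chosen families, had 669 pairs in almond, 402 in the hybrid and 2 in peach over 3 libraries each. Its log2 fold change of the hybrid against almond was -1.03 (SE 0.40, edgeR adjusted p = 0.132). LINE_1880, another unchosen family with an almond representative copy, had 23 pairs in almond, 8 in the hybrid and 27 in peach. All 27 peach pairs came from the library labelled replicate 4. The log2 fold change of LINE_1880 in the hybrid against almond was -1.46 (SE 1.90, edgeR adjusted p = 0.703).

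Of 9 peach gene models annotated by the study as genes of RNA-directed silencing, DNA methylation or demethylation, 8 were tested. The RNA-dependent RNA polymerase gene Prupe.1G332600.1, whose class makes double-stranded RNA from which small RNAs are cut, fell in the hybrid against almond by 2.65 on the log2 scale (SE 0.73, edgeR adjusted p = 0.0404). The other 7 were not called in that comparison, where 1.99% of all tested features were called lower. The other gene of that class stood at -2.01 (SE 0.62, edgeR adjusted p = 0.0642). The study reported both RNA-dependent RNA polymerase genes as lower in the hybrid. In the hybrid against peach 0 of 8 were called, where 7.51% of all tested features were called in either direction. Against the mean of the parents it was also 0 of 8, where 3.97% of features were called.

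The features whose levels followed LINE_5760 most closely over the 9 libraries were Prupe.3G110500.1, with Pearson r of 0.995, Prupe.3G214200.1, with 0.992, and Prupe.2G180600.1, with 0.991, on log2(CPM + 1). For LINE_12224 they were Prupe.2G254800.1 and Prupe.8G262800.1, both at 0.996, and Prupe.8G248500.1 at 0.995. For LINE_10647 the first was Prupe.2G330100.1 (0.992), for LINE_10782 Prupe.5G151100.1 (0.989) and for LINE_1483 Prupe.1G134200.1 (0.95). The points are 3 genotypes of 3 libraries each, so that a feature that separates the genotypes alike reaches a high r, and r is given as a description of these libraries.

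The almond annotation held 140 copies of the 6 families among 35676 TEs with methylation values or blanks. There were 43 of LINE_10782, 28 of LINE_12224, 25 of LINE_12532, 19 of LINE_10647, 14 of LINE_1483 and 11 of LINE_5760, with lengths from 206 to 7125 bp. No copy stood under these family numbers in the peach annotation, but the numbers of both annotations were given separately, so this says nothing about the presence of the families in peach. The values are percentages of methylated calls per copy with 1 value per genotype and no coverage, so depth is unknown, no spread between libraries can be given and no difference in methylation was tested. All hybrid reads were aligned to the almond genome with relaxed settings, so a hybrid value can include reads from the peach chromosomes. Other LINE copies below are the 681 outside the 6 families whose class stood in the annotation rows used here. They are only a part of the LINE copies that the study counted in almond.

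The representative copies were methylated very differently. LINE_5760 had 95.1% CG, 74.1% CHG and 15.2% CHH methylation in almond, and 93.1%, 51.9% and 6.76% in the hybrid. LINE_12224 had 89.6%, 28.4% and 0.852% in almond, and 76.9%, 1.58% and 0.422% in the hybrid. The copy of the family with the most RNA was thus the most methylated in CHG and CHH among the representatives with a value, and in both families the hybrid had the lower value in every context.

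The other representatives had little methylation outside CG. LINE_10782 had 52.4% CG, 1.55% CHG and 0.568% CHH in almond and 30.9%, 0.490% and 0.311% in the hybrid. LINE_1483 had 100% CG, 3.89% CHG and 1.04% CHH in almond and no hybrid value. LINE_12532 had 0% CG, 0.550% CHG and 0% CHH in almond and 0% in all contexts in the hybrid. LINE_10647 had only a CHH value of 0% in almond and 0% in all contexts in the hybrid. A second LINE_10647 copy of the same 1722 bp, chr7:13246525-13248246, had 1.6% CG, 1.2% CHG and 1.0% CHH in almond and 0% in the hybrid. In almond the CHG value of LINE_12532 was above that of 1.86% of all TEs and of 22.0% of other LINE copies, and that of LINE_5760 above 69.0% and 82.9%.

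LINE_5760 had copies of 2 kinds. The 4 copies of 6098 to 6110 bp, 3 of them on chromosome 1 and 1 on an unplaced scaffold, had 92.7% to 95.1% CG, 54.6% to 74.5% CHG and 7.51% to 15.2% CHH methylation in almond. The 7 copies of 375 to 1461 bp had 77.1% to 96.3% CG but 0% to 20.6% CHG and 0% to 5.09% CHH. Long and short copies were thus alike in CG and did not overlap in CHG or CHH. This split by length was chosen after the values were seen.

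In the hybrid, CHG methylation was lower in 4 of 4 long LINE_5760 copies, by 14.5 to 23.0 points, with means of 65.4% in almond and 44.7% in the hybrid. CHH was lower in 4 of 4, with means of 11.1% and 5.82%, and CG in 4 of 4, with means of 93.6% and 91.6%. A CHG value lower by at least 14.5 points was found in 4.50% of the 17279 TEs outside the 6 families with values in both genotypes. This cut-off is the smallest difference among the 4 long copies, so all 4 reach it by definition, and the shares are a description. The share was 2.60% among 2811 TEs of at least 5000 bp, 4.19% among 14380 TEs with at least 50% CHG in almond, 6.10% among 508 other LINE copies and 3.70% among the 54 of these of at least 5000 bp. In the 7 short copies the CHG differences of the hybrid from almond ran from -11.3 to 3.78 points. Copies of a family share sequence and genotype and are not replicates, and reads that fit several long copies equally well were not kept by the authors.

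**Figure D3:**
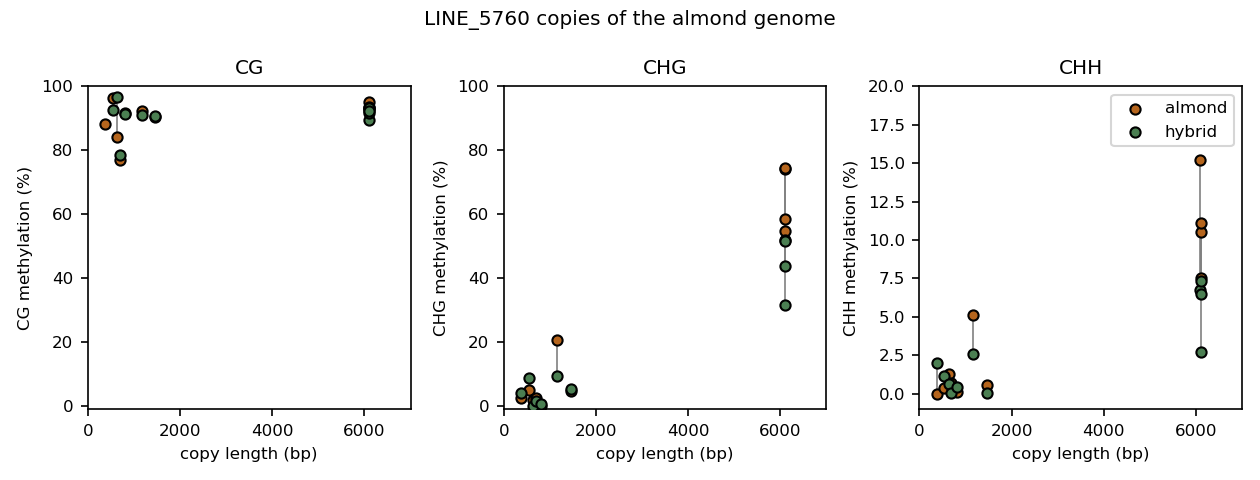
Methylation of the 11 LINE_5760 copies of the almond genome in CG, CHG and CHH (percent, y axes, with an own scale for CHH) against copy length in bp. Points are single copies in almond and in the hybrid, joined by grey lines; CG is high at all lengths, whereas CHG is above 50% in almond only in the 4 copies of 6098 to 6110 bp, where every hybrid point lies lower.

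LINE_12224 was split another way. Of its 26 copies with a CG value in almond, 14 were above 80% and 8 under 20%. In CHG, the hybrid value was lower by at least 10 points in 8 of its 24 copies measured in both genotypes and higher by as much in 3. The CHG value of the representative copy was lower by 26.8 points. A difference at least that far was found in 4 of the 114 copies of the 6 families, in 1.57% of 508 other LINE copies and in 1.0% of TEs outside the families. This cut-off is the value of the representative, which reaches it by definition, so the shares are a description.

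LINE_10647 was the family with the least methylation. Its median copy had 5.08% CG and 1.25% CHG methylation in almond, and 9 of 17 copies had under 20% CG. LINE_12532 had 7 of 17 copies under 20% CG and 8 of 17 above 80%, and 7 of its 25 copies had no value in either genotype, among them both copies of 3497 bp on chromosome 2. LINE_10782 had a median of 84.5% CG and 55.5% CHG in almond, although its representative had 52.4% and 1.55%. LINE_1483 had a mean CHH methylation of 19.1% ± 20.3 (SD over 13 copies) in almond, with copies from 0.391% to 59.6%. The mean was 3.88% in other LINE copies and 16.4% in all TEs of the almond annotation. The LINE_1483 copies had a median length of 394.5 bp. In CHG, 4 of the 8 LINE_1483 copies with both values were higher in the hybrid by at least 10 points and 0 were lower by as much.

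Over all 6 families, 25.0% of copies with a CG value in almond had under 20%, against 20.1% of other LINE copies and 2.16% of all TEs in the almond annotation. In CHG, 18.4% of the 114 copies with both values were lower in the hybrid by at least 10 points and 13.2% were higher by as much. The shares were 9.45% and 7.87% in other LINE copies and 8.24% and 6.37% in all TEs outside the 6 families. The mean differences of the hybrid from almond, over the copies with both values in each context, were small. They were -1.97 points for CG sites (109 copies), -0.82 for CHG sites (114 copies) and -0.08 for CHH sites (115 copies).

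**Figure D4:**
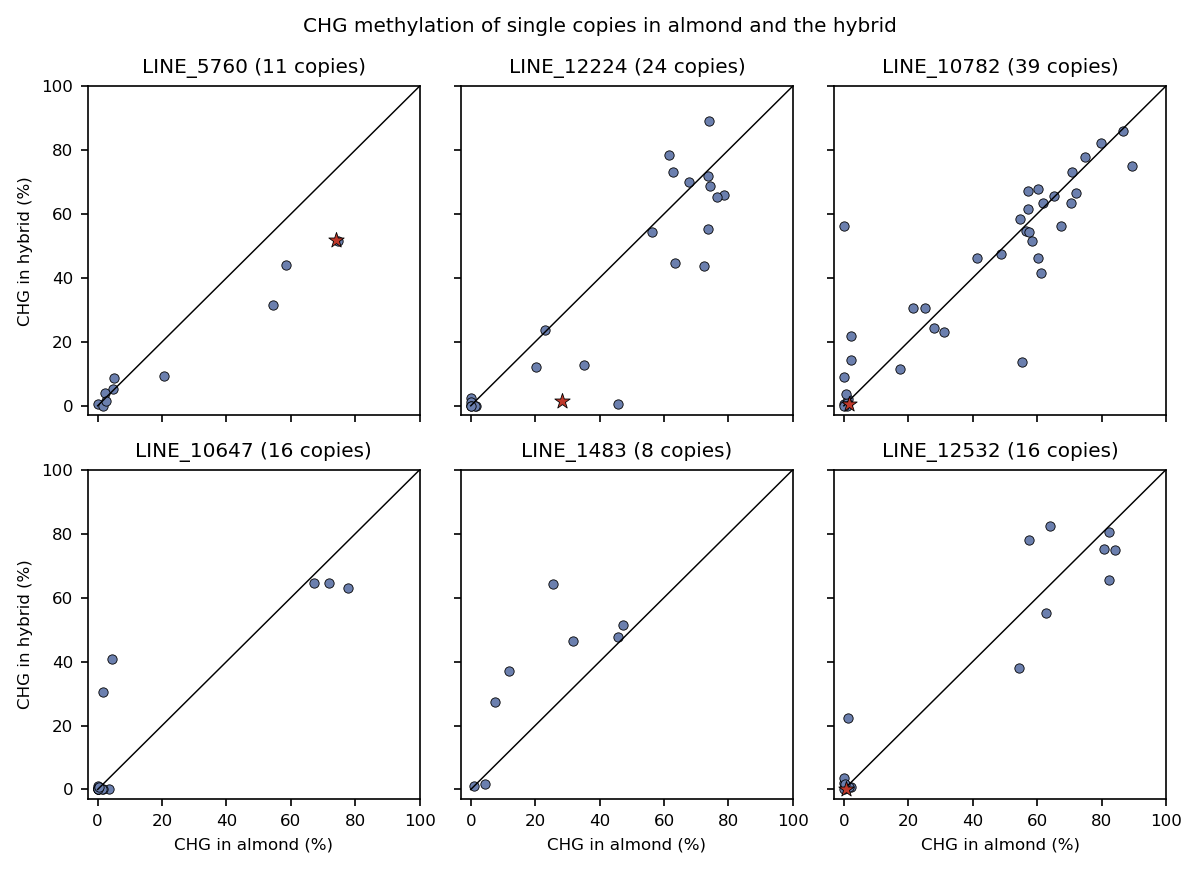
CHG methylation of single copies in the hybrid (y axis, percent) against almond (x axis, percent) for the 114 copies with both values, with the line of equal values. Red stars are representative copies, which are missing for LINE_10647 and LINE_1483; those of LINE_5760 and LINE_12224 lie below the line by 22.2 and 26.8 points, and that of LINE_5760 covers a second copy of nearly the same values.

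Copies of different families lay close together in places. Of the 140 copies, 11 were within 10 kb of a copy of another of the 6 families, 5 of them LINE_10647, 5 LINE_12532 and 1 LINE_12224. The LINE_12224 copy chr7:13239167-13239708 ended 3 bp before the LINE_10647 representative. The LINE_12532 copy chr7:13245978-13246361 lay 163 bp from the second LINE_10647 copy of 1722 bp, and on chromosome 5 the LINE_10647 copy chr5:7033182-7034138 lay 24 bp from the LINE_12532 copy chr5:7034163-7034544. Whether such neighbours are pieces of 1 inserted element was not tested.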

How the data were processed

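The counts were made by the authors with RSEM and Bowtie2 from stranded pairs of 150 bases, aligned to a set of peach transcripts and of representative peach and almond TEs. Sense reads were kept, and the counts were deposited as whole numbers that were not normalized. The deposited percentages of methylation were made by the authors with Bismark 0.19.1 and SeqMonk from cytosines covered at least 3 times. Their deposited rlog values, on a log2 scale, were not used here. In the count table, 1 line held a pair of records, which were separated. The design text of the series calls the samples biological replicates, and p-values measure the spread between these libraries.

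The tests on counts used edgeR 4.0.16 under R 4.3.3 (filterByExpr, TMM, quasi-likelihood, all 9 libraries, genotype as factor), and with DESeq2 1.42.0 as an alternative. All p-values from edgeR were adjusted over the 19085 features tested, 49 of them TE families. Pooled ratios have 95% intervals conditional on read pairs. Python 3.11.15, pandas 2.3.3, numpy 2.4.6, scipy 1.17.1 and matplotlib 3.10.9 served for the rest. The scripts were tested on simulated data. Alternatives were other scalings, filters and tests, read pairs in place of counts, a replicate block, and leaving out each library.

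The families and lists were chosen with earlier results of these data known. Named were the 6 families, the other LINE families, the silencing genes that were called, and for each tested family the 3 features with the highest correlation. Representative coordinates came from the study's list. Leaf markers could not be checked, because no table used here gives names for the peach gene models, and no LINE sequence or genome was used here.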

Additional observations from a re-analysis of the deposited data

How the results depend on the processing

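Of 389 values of single families under alternatives, 364 kept their direction and side of the threshold, 19 lost their call, 6 gained one and 0 changed direction. The 389 include the values of almond against peach, the contrast that chose the families, so the tally is not independent of the choice. In that contrast LINE_1483 kept its call in 11 of 18 alternatives. Leaving out single libraries gave from 0 to 1 families called lower in the hybrid than in almond, from 2 to 3 called higher than in peach, and from 0 to 2 whose interval excluded 1/2 of the almond level. Without peach replicate 4, LINE_5760 was the second such family, with an interval from -2.08 to -1.03. Against a minimum fold of 2, 0 families were called in the hybrid against almond. With read pairs in place of counts, or with no low-count filter, 4 were called higher in the hybrid than in peach, with LINE_10782 added. With DESeq2, 5 were called higher in the hybrid than in peach, with LINE_10782 (DESeq2 adjusted p = 0.00236) and LINE_1483 (0.0186) added.

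Replicate numbers were not treated as pairs in the main fit. Deviations of same-numbered libraries had correlations from -0.12 to 0.27, and 2 of 7 pairs were over 0.1. Libraries with different numbers had correlations from -0.31 to 0.19. With 3 libraries per genotype these values cannot exclude a pairing. With the replicate block, 1 family was called in the hybrid against almond (LINE_5760, -1.51, edgeR adjusted p = 0.00268) and 3 against peach, where LINE_10782 was called (0.0208) and LINE_10647 was not (0.0853). Only peach had a library labelled replicate 4, so that library was alone in its block and did not inform the values against peach. The blocked fit against peach thus also leaves this library out, and LINE_10782 was called without it in the unblocked fit too (edgeR adjusted p = 0.00379). Of the 6 families, LINE_12224 was still the one called against the mean of the parents.

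For the 134 copies that are not representatives, the mean CG value in the hybrid, over 106 copies, differed from that in almond, over 119 copies, by -2.03 points, but by 1.42 in copies of at least 500 bp. The medians differed by -10.9 points, and over the 105 copies with both values the mean difference was -1.70 points. LINE_1483 and LINE_12532 had at most 27 read pairs per genotype and libraries at 0 in almond, and what size of difference between almond and the hybrid could be seen in them was not tested.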
